A study of Mus musculus with 3 samples.

Results

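The Hox clusters and the CTCF sites within them were examined in mouse embryonic stem (ES) cells. The genes are 38 listed Hox genes, chosen by name, of 22219 protein-coding genes with a promoter window. They lie in 4 windows of the mm9 genome that run from 20 kb before the first to 20 kb after the last listed gene of a cluster: HoxA on chr6:52092350-52230874, HoxB on chr11:96035630-96249570, HoxC on chr15:102731534-102887274 and HoxD on chr2:74486367-74623200. Inside these windows, 33 of the 30722 CTCF-enriched regions of the genome were found.

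The data comprise 3 libraries. In CTCF ChIP-BisSeq, chromatin is precipitated with an anti-CTCF antibody and its DNA is read after bisulfite conversion. The 2 replicates of it were from wild type ES cells (strain Mixed, 129-C57Bl/6), with DNA of 5 ChIPs pooled per library. The other library is whole genome bisulfite sequencing (WG-BisSeq) of REST knockout ES cells (strain Black Agouti 129), a single library, and REST is a transcriptional repressor. Per the labels, cells of both genotypes were kept with LIF on feeder cells or gelatine, without saying which applies to a library. Genotype, strain and assay differ together between ChIP-BisSeq and REST knockout, so that their effects cannot be told apart, and any test between them compares these libraries and not conditions. No input library of the wild type cells was used here.

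Hox genes encode homeodomain transcription factors that give the body axis its regional identity, and they are arranged in clusters in which gene order follows the order of expression along the axis. In ES cells most of them are silent, are held by Polycomb complexes and have CpG-rich promoters. CTCF is a zinc finger protein that binds a long DNA motif and anchors chromatin loops, and its sites within Hox clusters are known as borders between active and Polycomb-bound chromatin. Bisulfite sequencing reads 5-methylcytosine and 5-hydroxymethylcytosine alike as methylated.

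Replicate 1 held 13411280 observations of a CpG, replicate 2 held 25262179 and the REST knockout library 273375318. Without CpGs of extreme coverage, the mean coverage of a genomic CpG was 0.620, 1.11 and 7.87 observations. In the REST knockout library the Rest exon at chr5:77695221-77695438 had 0.0857 observations per CpG against 29.7 in the first exon. Replicate 1 also had 0 observations in that exon and replicate 2 had 119. In the exon at chr5:77696957-77697848 the REST knockout library had 12 observations, replicate 1 had 28 and replicate 2 had 173. In REST knockout, promoters of ES cell markers were below 20% methylation for 6 of 7 genes, with Pou5f1 at 4.11% and Nanog at 20.7%. In the same library, promoters of fibroblast markers were below 20% for 1 of 5 genes and ranged from 10.2% to 73.2%. Those of germline genes were for 0 of 4, from 22.8% to 48.5%. ChIP-BisSeq replicates 1 and 2 differed from it in both directions, within the fibroblast list and within the germline list. Among fibroblast markers, Col1a1 had 7.23% and 10.8% against 46.2%, and Col1a2 had 20.3% and 42.0% against 38.4%. Dcn had 100% in both replicates against 35.3%, from 17 and 9 observations. Among germline genes, Dazl had 8.72% and 21.3% against 48.5%, and Mael had 62.8% and 47.1% against 37.8%. The part of feeder cells in the values below was not tested.

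The sequences of 5 CTCF-enriched bins of 200 bp are shown first, because each lies outside annotated exons and its methylation differed between ChIP-BisSeq and REST knockout. They are the plus strand of mm9, with CpGs in capitals.

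Hoxb9 to Hoxb8, chr11:96140201-96140400: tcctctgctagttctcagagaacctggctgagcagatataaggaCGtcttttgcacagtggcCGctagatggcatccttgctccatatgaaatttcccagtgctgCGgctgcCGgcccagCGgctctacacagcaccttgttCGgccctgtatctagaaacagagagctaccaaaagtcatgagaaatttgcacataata
Hoxb7 to Hoxb6, chr11:96156001-96156200: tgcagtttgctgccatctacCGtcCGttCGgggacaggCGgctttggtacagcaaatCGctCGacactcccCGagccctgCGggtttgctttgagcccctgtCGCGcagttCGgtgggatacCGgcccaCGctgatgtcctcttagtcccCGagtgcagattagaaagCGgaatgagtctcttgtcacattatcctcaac
Hoxc9 to Hoxc8, chr15:102818001-102818200: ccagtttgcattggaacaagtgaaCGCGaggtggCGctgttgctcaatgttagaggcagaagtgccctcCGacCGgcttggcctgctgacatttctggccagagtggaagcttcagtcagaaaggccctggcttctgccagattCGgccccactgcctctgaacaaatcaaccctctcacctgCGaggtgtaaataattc
Hoxd13 upstream, chr2:74501801-74502000: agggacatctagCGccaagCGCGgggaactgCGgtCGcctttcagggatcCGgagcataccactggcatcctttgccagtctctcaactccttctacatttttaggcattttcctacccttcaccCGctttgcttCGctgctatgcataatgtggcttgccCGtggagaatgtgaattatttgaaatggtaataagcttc
Hoxd13 to Hoxd12, chr2:74511201-74511400: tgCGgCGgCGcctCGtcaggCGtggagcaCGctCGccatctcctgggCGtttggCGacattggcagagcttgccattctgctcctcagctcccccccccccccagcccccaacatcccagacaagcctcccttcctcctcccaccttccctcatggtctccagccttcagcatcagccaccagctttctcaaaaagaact

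They hold 6, 15, 8, 9 and 9 CpGs in the order printed. In the Hoxd13 to Hoxd12 bin all CpGs are in its left part, around the CTCF consensus match.

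Hox promoters, taken as the transcription start site (TSS) plus and minus 1 kb, had a median methylation of 12.5% in REST knockout cells, and 24 of 38 were below 20%. Of all 20338 protein-coding promoters with at least 20 observations, 58.8% were below 20%, and their median was 11.7%. The HoxB cluster had the most methylated promoters, with a median of 30.9% and 4 of 10 below 20%. The medians of HoxA, HoxC and HoxD were 11.3%, 12.9% and 10.2%, and 8 of 10, 6 of 9 and 6 of 9 promoters were below 20%. Methylation is given as summed methylated observations over summed observations, and intervals are 95% Clopper-Pearson (exact) and hold counting error alone. They take each observation as independent, although neighbouring CpGs can lie on the same read, and can therefore be too narrow.

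The lowest promoter of each cluster belonged to a different paralogue group. Hoxb9 had a methylation of 3.44% (95% interval 2.74 to 4.26%), Hoxd8 of 3.82% (3.32 to 4.37%), Hoxc13 of 4.30% (3.65 to 5.03%) and Hoxa4 of 4.83%. Their intervals overlap, and the order of these genes was not tested. Low values were also found for Hoxd11 at 4.33%, Hoxd13 at 4.37%, Hoxa13 at 5.52% and Hoxc12 at 6.44%. The other promoters below 20% ranged from 7.90% for Hoxa5 to 16.5% for Hoxa2. They were, in HoxA, Hoxa3 at 14.3%, Hoxa7 at 13.02%, Hoxa10 at 9.11% and Hoxa11 at 9.65%, and in HoxB, Hoxb6 at 10.1%, Hoxb7 at 11.5% and Hoxb8 at 9.07%. In HoxC they were Hoxc5 at 12.9%, Hoxc8 at 11.9%, Hoxc9 at 15.6% and Hoxc11 at 8.35%, and in HoxD, Hoxd1 at 8.14%, Hoxd9 at 10.2% and Hoxd10 at 12.1%.

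Methylation of 20% or more was measured at 14 of 38 promoters. In HoxA they were Hoxa6 at 23.8% and Hoxa9, which had the highest value of its cluster at 30.3%, or 198 of 654 observations. In HoxC they were Hoxc4 at 22.4%, Hoxc10 at 23.9% and Hoxc6, the highest of its cluster, at 24.7% (21.1 to 28.6%). The intervals of these 3 HoxC genes overlap.

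In HoxD, Hoxd3 was highest at 41.5% (38.3 to 44.9%), followed by Hoxd12 at 33.9% and Hoxd4 at 33.3%. In HoxB, Hoxb4 was highest with 57 of 89 observations methylated, in a window of 26 CpGs, and its interval is 53.2 to 73.9%. It was followed by Hoxb1 at 40.3%, Hoxb2 at 38.4%, Hoxb13 at 36.0%, Hoxb3 at 31.8% and Hoxb5 at 30.0%. Hoxb1 is the most anterior gene of the cluster and Hoxb13 the most posterior, and both were above 20%.

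The annotated TSS decides some of these values. A window centred on the start codon was added after the values had been seen, and it gave 27 promoters below 20%. Hoxb4, whose start codon lies 2086 bp from the TSS used, had 12.3% in it, Hoxb5 had 14.2% and Hoxa9 had 10.5%. Hoxd3 had a higher value in that window, 58.3%, but from 36 observations against 881 around the TSS.

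**Figure D1:**
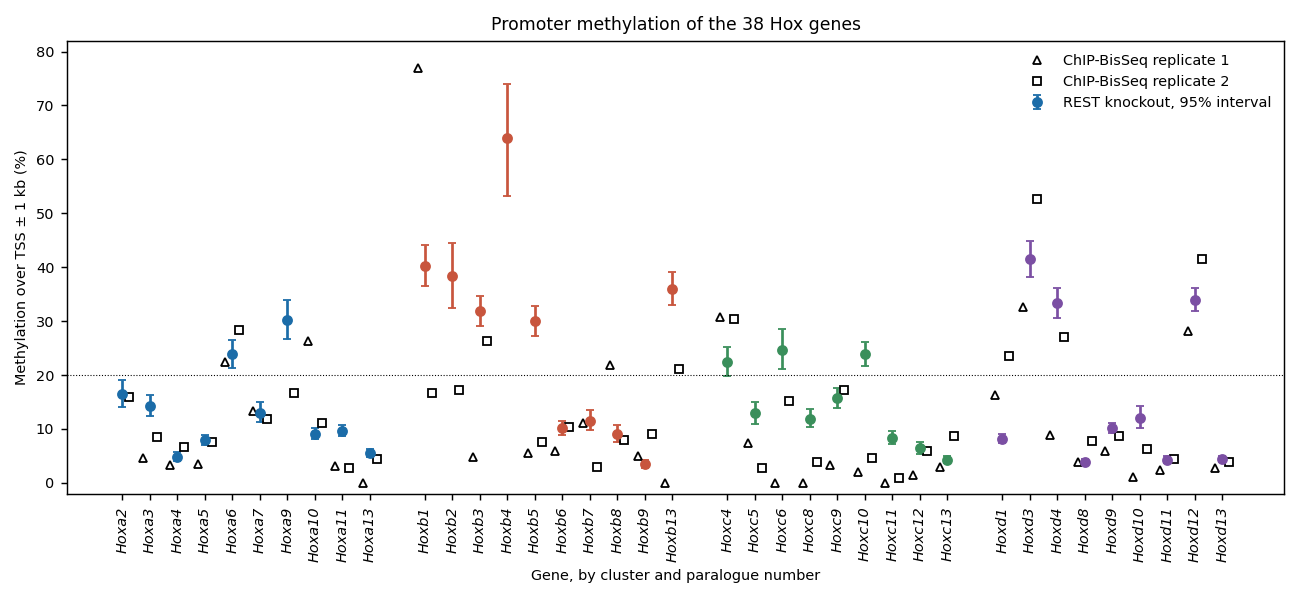
Methylation over TSS plus and minus 1 kb (y axis, percent) of the 38 Hox genes (x axis, by cluster and paralogue number). Filled circles are REST knockout with exact 95% intervals, triangles and squares are ChIP-BisSeq replicates 1 and 2 where they have at least 20 observations, and the dotted line marks 20%. In HoxB, 6 of 10 genes lie above the line in REST knockout, and Hoxb1 has replicates on both sides of its REST knockout value.

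By paralogue number, which follows gene order along the clusters, 4 of 11 promoters of groups 1 to 4 were below 20%, 8 of 11 of groups 5 to 8 and 12 of 16 of groups 9 to 13. Their medians were 31.8%, 11.9% and 9.38%. Genes of one group were not alike, since group 13 spanned 4.30% to 36.0% and group 12 spanned 6.44% to 33.9%. These classes also differ in CpG number, with medians of 60, 89 and 103 CpGs in a window.

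The number of CpGs in the window was related to methylation with a Spearman rho of -0.87 over the 38 Hox promoters, beside -0.84 over all 20338, where the points share 1 library. In the most CpG-rich class, of at least 85 CpGs, 19 of 20 Hox promoters were below 20%, beside 98.8% of all such promoters. The exception was Hoxc10. In the middle class, of 32 to 84 CpGs, 5 of 17 Hox promoters were below 20% and their median was 30.0%, beside 63.7% and a median of 13.02% for all promoters of that class. The REST knockout coverage per CpG moved with methylation too (rho -0.59 over 38), and its part was not tested.

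Promoters of genes that act with Hox proteins or on Hox clusters were read in REST knockout. They are set beside the 58.8% of all promoters, and the 98.8% of the most CpG-rich class, that were below 20%. All 9 HOX cofactor genes, of the Pbx, Meis and Pknox families, were below 20%, with 11.1% for Meis1 as the highest. All 10 Polycomb and Trithorax genes were below 20%, from 2.35% for Eed, a subunit of Polycomb complex 2, to 6.69% for Ezh1, and with 96 to 185 CpGs all of them are of the most CpG-rich class. All 6 Cdx and ParaHox genes were below 20%, with Pdx1 highest at 19.02%. Of 10 neighbouring genes outside the listed Hox genes, 6 were below 20%, and Smug1, a DNA glycosylase gene beyond HoxC, was highest at 57.9%.

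Over the gene spans, from the first to the last listed gene, 98 of 421 bins of 1 kb with at least 20 observations were below 20%, or 23.3%. In the genome 3.23% of such bins were below 20%. Hox bins are rich in CpGs, and among bins with at least 20 CpGs the shares were 41.3% in the spans (92 of 223) and 22.3% in the genome. Among bins with fewer CpGs, 6 of 198 Hox bins (3.03%) and 1.15% of bins in the genome were low. Low bins made up 31.4% of the HoxA span, 30.6% of HoxD, 23.9% of HoxC and 14.6% of HoxB. The median CpG number of a bin fell in the same order, from 28 over 24 and 20.5 to 16.

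Of the 421 bins, 207 had an intermediate level of 20 to 60%, and 27.6% of the 421 had 60% or more, beside 74.4% of bins in the genome. The longest runs of low bins within reach of a Hox gene were in HoxD, where 5 kb around the Hoxd11 TSS had 8.81% over 297 CpGs and 4 kb around the Hoxd13 TSS had 4.55% over 188 CpGs. In HoxB, 4 kb across the starts of Hoxb8 and Hoxb7 had 9.90%, and in HoxC, 4 kb around the Hoxc11 start had 9.95%. A run of 5 kb with 7.07% also lay in the HoxD flank over Evx2, a homeobox gene next to Hoxd13.

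The HoxB levels differed along the cluster. The interval from Hoxb13 to Hoxb9, with 77.1 kb between their starts, had a median of 66.0% per bin, and 37 of its 62 measured bins were at 60% or more. From Hoxb9 to Hoxb1 the median was 45.3%, with 19 of 92 bins below 20%. The longest highly methylated runs were both in HoxB and 6 kb long, at 77.2% between Hoxb13 and Hoxb9 and at 65.3% between Hoxb4 and Hoxb3.

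**Figure D2:**
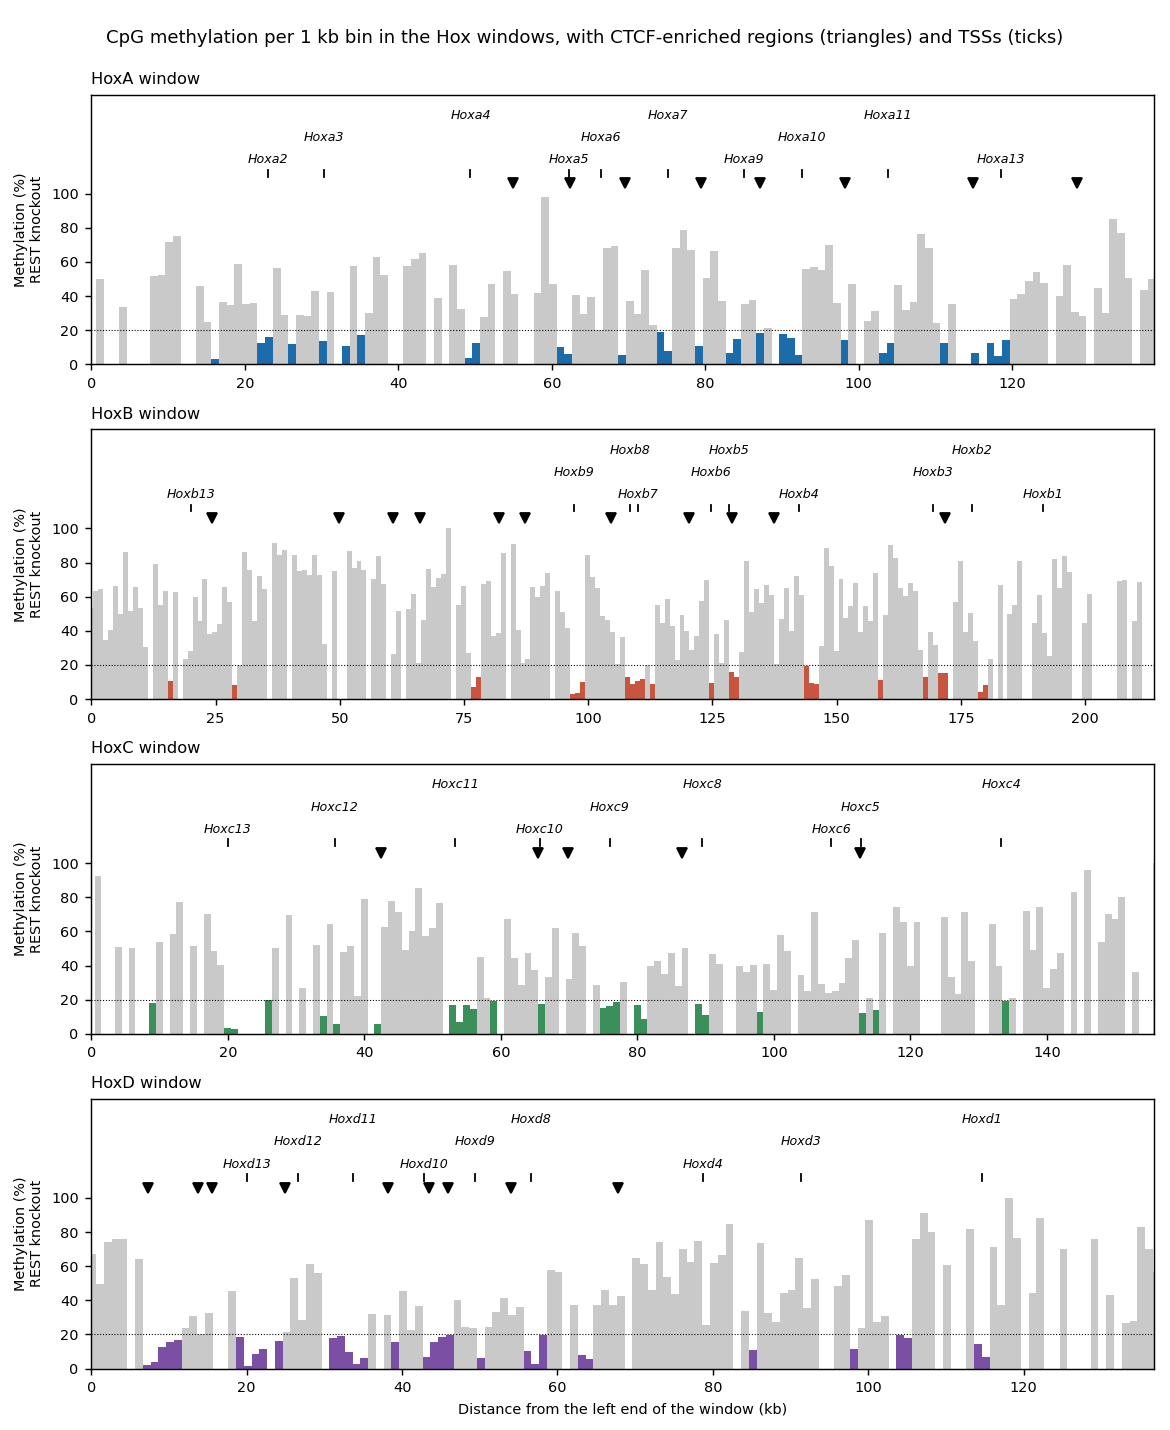
Methylation in REST knockout per 1 kb bin (y axis, percent) against the distance from the left end of each window (x axis, kb). Coloured bars are bins below 20%, grey bars are other bins with at least 20 observations, gaps are unmeasured bins, triangles are CTCF-enriched regions and ticks are TSSs. Low bins make up 31.4% of measured bins in the HoxA span and 14.6% in HoxB, where the stretch between Hoxb13 and Hoxb9 has 3 low bins of 62 and 6 CTCF regions.

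MicroRNA genes of the clusters, 6 in all, were read too, and genes that share a seed are printed together. Their mature 5p sequences from RefSeq (GRCm38.p6) carry the seed, bases 2 to 8, in capitals.

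miR-10a-5p, from Mir10a in HoxB: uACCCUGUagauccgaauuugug
miR-10b-5p, from Mir10b in HoxD: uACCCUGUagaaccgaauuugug
miR-196a-5p, from Mir196a-1 in HoxB and Mir196a-2 in HoxC: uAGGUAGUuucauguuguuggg
miR-196b-5p, from Mir196b in HoxA: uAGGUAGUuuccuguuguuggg
miR-615-5p, from Mir615 in HoxC: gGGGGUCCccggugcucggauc

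The miR-10 pair shares a seed and so do the miR-196 genes. Around the 5' end of the hairpin (plus and minus 1 kb), methylation in REST knockout was 29.7% for Mir10a and 68.0% for Mir10b. It was 18.7% for Mir196b, 49.5% for Mir196a-2 and 69.3% for Mir196a-1, whose intervals do not overlap. Mir615, inside Hoxc5, had 15.9%. The intervals of Mir10a and Mir10b do not overlap either. These windows are not mapped microRNA promoters.

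CTCF enrichment was measured as coverage per CpG over the library mean, in bins of 200 bp. A bin was called enriched when both replicates reached 8 times their mean with at least 10 observations and the REST knockout library stayed under 4 times its own. Of 2731 bins with a CpG in the Hox windows, 58 were enriched, or 2.12%, beside 0.516% of all 8881731 bins. These shares were not matched for CpG number, and 10 observations are harder to reach in bins with few CpGs. The 58 bins merged into 33 regions, of which 8 were in HoxA, 11 in HoxB, 5 in HoxC and 9 in HoxD. The REST knockout fold of these bins ranged from 0 to 3.90.

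The limit lies within a continuous range. The Hox bins just inside it had 8.20-fold, 8.30-fold and 8.87-fold in the weaker replicate, and those just outside had 7.89-fold, 7.47-fold and 7.22-fold. The strongest had 71.6-fold. Another 4 bins passed in both replicates but had a REST knockout fold over 4, among them a bin at chr6:52161601-52161800 between Hoxa6 and Hoxa7 with 60.8-fold and 39.0-fold.

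**Figure D3:**
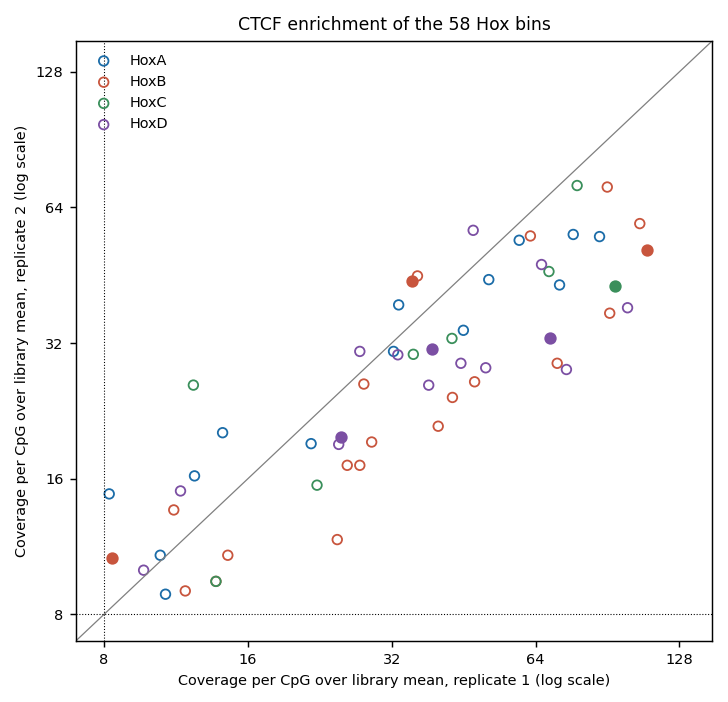
Coverage per CpG over the library mean in replicate 1 (x axis) and replicate 2 (y axis), both on log scales, for the 58 enriched bins coloured by cluster. Filled circles are the 7 bins called different in methylation between ChIP-BisSeq and REST knockout, the line marks equality and the dotted lines mark 8-fold. The 2 folds have a Spearman rho of 0.86 over the 58 bins. The bins were chosen on both folds, which share the CpG number of a bin, so that rho is no test of replicate agreement. Called bins occur among strong and weak ones.

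Most regions lay between the TSSs of listed Hox genes, and some of these were inside a gene, as in the Hoxa10 UTR and the Hoxd11 UTR. The share of the windows that lies near a TSS was not computed, so that the counts show no avoidance of gene starts. Of the 33, 29 were between the TSSs of listed genes and 5 had their centre within 1 kb of one, and the median distance to the nearest Hox TSS was 4296 bp. In HoxA, 7 of 9 intervals between neighbouring TSSs held 1 region each, from the Hoxa4 to Hoxa5 interval to the Hoxa11 to Hoxa13 interval. No region was found between Hoxa2, Hoxa3 and Hoxa4. The Hoxd4 to Hoxd3 and Hoxd3 to Hoxd1 intervals of HoxD also held 0 regions, as did the Hoxb2 to Hoxb1 interval. Empty intervals were not confined to anterior ends, since Hoxc13 to Hoxc12, Hoxd12 to Hoxd11 and Hoxb8 to Hoxb7 held 0 regions too. The anterior Hoxb3 to Hoxb2 interval held 1. In HoxC, 5 of 8 intervals held a region.

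Regions were ranked within a cluster by the fold of their strongest 200 bp bin in the weaker replicate. Those of rank 1 to 3 are given for HoxA, HoxB and HoxD, and those of rank 2 and 3 for HoxC. The folds and methylation levels given are those of whole regions, whose bins the libraries cover unevenly. In HoxA, the region at chr6:52154401-52155000, which spans the Hoxa5 TSS, had 54.3-fold and 40.5-fold coverage. Its methylation was 2.76% in replicate 1, 7.74% in replicate 2 and 7.93% in REST knockout. The region in the Hoxa7 gene, chr6:52171601-52172000, which spans coding exon and UTR, had 1.06%, 3.19% and 7.41%. The region in the Hoxa10 UTR, chr6:52190401-52190800, had 4.17%, 1.77% and 8.69%. All 3 HoxA regions were below 10% in every library, with 454 to 661 observations in REST knockout.

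In HoxB the 3 strongest regions were all in the long interval between Hoxb13 and Hoxb9. The region at chr11:96122801-96123200, in a coding exon and UTR of the gene model Gm53, had 63.6-fold and 51.7-fold coverage and a methylation of 6.76%, 7.56% and 12.3% in replicate 1, replicate 2 and REST knockout. The intergenic region at chr11:96101601-96102000 had 2.93%, 7.06% and 13.5%, and that at chr11:96096201-96096600 had 9.90%, 9.17% and 8.47%. The 1 kb bins of this interval had a median of 66.0%.

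In HoxC, the region of rank 2 between Hoxc9 and Hoxc8, chr15:102817801-102818200, had 40.2-fold coverage in replicate 2, the weaker of the replicates, and a methylation of 5.31%, 4.04% and 26.0%. The region at chr15:102844001-102844400 overlaps the Hoxc5 TSS, whose distance from the centre is 46 bp, and had 2.27%, 2.01% and 10.9%. In HoxD the region in the coding exon and UTR of Evx2, chr2:74493401-74493800, had 1.97%, 5.58% and 1.63%. The region in the Hoxd11 UTR, chr2:74524401-74524800, had 4.86%, 2.74% and 27.3%, the last from 66 observations. Its strongest bin, chr2:74524401-74524600, had 0 of 204, 6 of 265 and 1 of 31 methylated observations. The adjoining bin had 12 of 43, 4 of 100 and 17 of 35. The region between Hoxd8 and Hoxd4, chr2:74553801-74554400, had 4.94%, 5.29% and 13.8%.

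The CTCF consensus was searched as a 13 bp pattern at positions 5 to 17 of a 20 bp frame, on both strands and up to 100 bp beyond a region. An exact match was found in 4 of 33 Hox regions, beside 38.5% of all enriched regions. With 1 mismatch allowed outside positions 8, 11 and 16, 14 of 33 regions held a match, beside 74% of all. The 4 exact matches come first below, followed by the matches with a mismatch in the other regions described here, and the matches of 5 further regions are not printed. They are in the orientation of the motif, with the 13 consensus positions in capitals. The match between Hoxb13 and Hoxb9 is that of the region at chr11:96085201-96085600. The HoxB regions of rank 1 to 3, in the same interval, held no match of either kind. Sequences with more mismatches were not searched, so that a region without a match may still hold a CTCF motif. The windows hold 10 exact matches in all, and the other 6 had a coverage under 3-fold in both replicates or no CpG within the surrounding 200 bp.

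Hoxa7 to Hoxa9, plus strand: acacTGCCATCTCCTGGaat
Hoxa10 to Hoxa11, plus strand: agtgCGCCATCTCGTGGcgg
Hoxb13 to Hoxb9, plus strand: atggCGCCCTCTTCTGGcct
Hoxd13 to Hoxd12, plus strand: cgctCGCCATCTCCTGGgcg
Hoxa5 to Hoxa6, plus strand: cgagCGCCACCCGCTGGaga
Hoxb9 to Hoxb8, minus strand: aggaTGCCATCTAGCGGcca
Evx2, upstream of Hoxd13, plus strand: ggggCGCCCCCTAGCGGcag
Hoxd11 to Hoxd10, minus strand: agcgCGCCCTCGTGTGGctg
Hoxd8 to Hoxd4, minus strand: acagCGCCTCCTCCTGGaca

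Over the matches that hold a CpG, methylation inside the 20 bp frame ranged from 0 to 8% in replicate 1 and from 0 to 10.2% in replicate 2. The highest values were at Evx2 in replicate 1 and between Hoxb3 and Hoxb2 in replicate 2, the latter 5 of 49 observations. In the Hoxa10 to Hoxa11 match, methylation was 2.01% in replicate 1, 0.442% in replicate 2 and 4 of 87 observations in REST knockout. In the Hoxd13 to Hoxd12 match, the methylated observations were 0 of 66, 1 of 154 and 12 of 55, which is 21.8% in REST knockout. The Hoxa7 to Hoxa9 match holds no CpG. In the Hoxd11 to Hoxd10 match, 0 of 145, 0 of 191 and 0 of 20 observations were methylated. Its region had 27.3% in REST knockout, with 17 of 35 in the bin at chr2:74524601-74524800, which lies outside the match.

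The HoxC regions held no exact match, and 1 of the 5 held a match with a mismatch, between Hoxc12 and Hoxc11. This does not show that the other HoxC regions lack a CTCF motif, since more mismatches were not allowed.

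The methylation of the CTCF-bound fraction was low in the Hox windows. Over the 58 enriched bins the median was 4.23% in replicate 1 and 5.61% in replicate 2, or 4.92% ± 0.976 (SD of the replicate medians, n = 2). The median in REST knockout was 13.4% over 51 bins with at least 20 observations. Over all 45792 enriched bins the medians were 31.1%, 23.5% and 25.9%. Hox bins held a median of 7.5 CpGs against 3 for all, and in bins with 5 or more CpGs the medians were 3.65%, 5.51% and 12.9% for Hox and 13.7%, 10.5% and 18.8% for all.

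In both replicates 35 of 58 bins were below 10%, beside 19.7% of all enriched bins in the genome, while 3 were at 20% or more in both. They were at chr11:96085401-96085600, chr11:96117601-96117800 and chr2:74540201-74540400, and the first had 0 observations in REST knockout. The replicates differed by a median of 3.70 percentage points. They differed by at least 20 points in 7 bins, and by as much as 48.7 points at chr6:52147201-52147400 between Hoxa4 and Hoxa5, with 17 of 26 against 8 of 48 methylated.

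To ask whether CTCF-bound DNA had another methylation level than the DNA of the REST knockout library, methylated and unmethylated observations of each replicate and of that library were compared with a two-sided Fisher's exact test, with Benjamini-Hochberg adjustment over all features of the kind in the genome. A feature was called when both adjusted p were under 0.05 and both differences were at least 20 percentage points in one direction. The test takes observations as independent, although neighbouring CpGs can lie on the same read, so that its p can be far too small. Of 51 Hox bins tested, 7 were called, and all of them were lower in ChIP-BisSeq. In the genome 6.8% of 19659 tested bins were called lower and 2.24% higher. Of the 51, 40 were lower in both replicates, 4 were higher in both and 7 had replicates on both sides. For the 4 that were higher, the adjusted p of Fisher's exact test was 0.143 or more.

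The called bin with the smallest p lay between Hoxb7 and Hoxb6, in an intron of the Hoxb6 gene record, at chr11:96156001-96156200. It had 10 of 328 methylated observations in replicate 1, 42 of 731 in replicate 2 and 45 of 130 in REST knockout. That is 4.40% ± 1.91 (SD, n = 2) against 34.6% (26.5 to 43.5%), with exact test adjusted p of 4.06e-16 and 2.42e-15. The p and the interval take all 130 REST knockout observations as independent. A single CpG of the bin, at chr11:96156021, had 6 of 16 methylated in REST knockout, so that far fewer molecules may have been read. The adjoining bin at chr11:96155801-96156000 had 4 of 36, 1 of 83 and 25 of 67. Neither replicate overlapped the REST knockout interval in the first bin, whereas replicate 1 of the adjoining bin, at 11.1% (3.11 to 26.1%), reached into it.

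In HoxD the bin between Hoxd13 and Hoxd12 at chr2:74511201-74511400, which holds the exact match, had 5 of 217, 4 of 310 and 49 of 198 methylated observations. That is 1.80% ± 0.717 (SD, n = 2) against 24.7% (18.9 to 31.4%), with exact test adjusted p of 1.88e-10 and 2.89e-15. The bin upstream of Hoxd13, at chr2:74501801-74502000, had 12 of 140, 23 of 198 and 13 of 34. The bin between Hoxd8 and Hoxd4, at chr2:74553801-74554000 in an intron of the Hoxd3 gene record, had 8 of 170, 8 of 146 and 10 of 37. The REST knockout intervals of these 2 bins were wide, 22.2 to 56.4% and 13.8 to 44.1%.

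In HoxB the bin between Hoxb9 and Hoxb8, at chr11:96140201-96140400, had 18 of 407, 18 of 342 and 7 of 22. In HoxC the bin between Hoxc9 and Hoxc8, at chr15:102818001-102818200, had 17 of 464, 15 of 379 and 20 of 78. In percent these are 4.84 ± 0.594 against 31.8 and 3.81 ± 0.208 against 25.6 (SD, n = 2). The called bins were 3 in HoxB, 1 in HoxC and 3 in HoxD, and 13 HoxA bins had been tested, a difference between clusters that was not tested. The exact test's adjusted p of the remaining called bins ranged up to 0.0211.

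Both assays cover the CpGs of a bin unevenly, so that summed levels weigh CpGs differently. With the REST knockout level of each CpG weighted by ChIP-BisSeq coverage, an alternative added after the values had been seen, 6 of the 7 bins kept a difference of 20 points in both replicates. For the Hoxb7 to Hoxb6 bin the weighted REST knockout level was 37.0% and 43.1%. The bin that lost it was the adjoining one at chr11:96155801-96156000, with 11.1% in replicate 1 against a weighted 17.7%. With replicate 2 alone 13 bins were called and with replicate 1 alone 10.

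**Figure D4:**
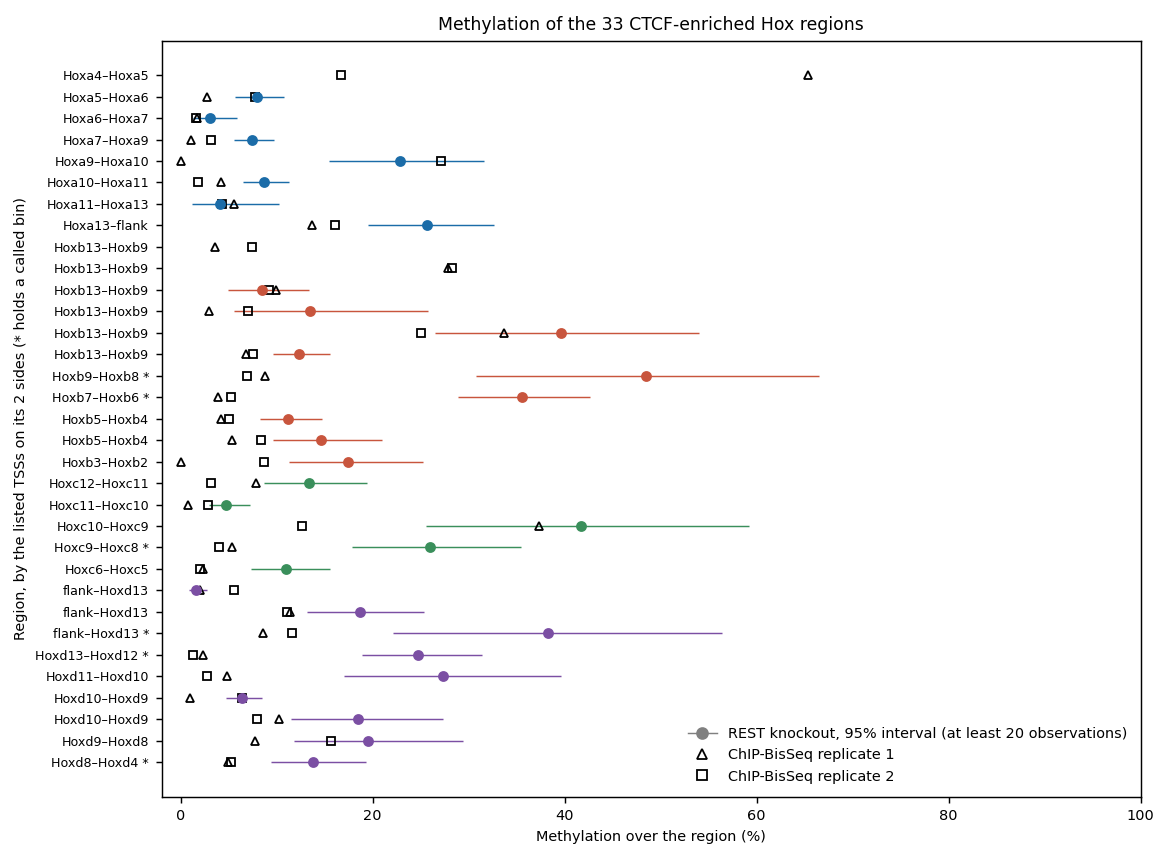
Methylation (x axis, percent) of the 33 CTCF-enriched Hox regions (y axis, named by the listed TSSs on their sides, in genome order within a cluster). Coloured circles are REST knockout with exact 95% intervals where it has at least 20 observations, triangles and squares are ChIP-BisSeq replicates 1 and 2, and asterisks mark regions with a called bin. Most triangles and squares lie below 10%, and circles spread from 1.63% to 48.5%.

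Of the 51 bins, 33 were already below 20% in REST knockout, where a difference of 20 points downwards could not be reached. Of the 18 bins at 20% or more, 5 were below 10% in both replicates, and these are among the 7 called bins. Among regions with at least 20 REST knockout observations, the highest level was between Hoxb9 and Hoxb8, at 48.5% of 33 observations, against 8.76% and 6.85%. The libraries covered its bins unevenly. Its strongest bin had 7 of 22 in REST knockout, against 4.42% and 5.26%. The adjoining bin at chr11:96140001-96140200 had 9 of 11, against 37.7% and 17.3%. The region nearest to Hoxb13, at chr11:96059801-96060200, had 6 of 6 methylated in REST knockout against 3.55% and 7.41%, and was not tested at this coverage.

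Of the 38 Hox promoters, 34 had at least 20 observations in each library. Only Hoxb5 was called, as lower in ChIP-BisSeq, in a genome in which 1.46% of 13124 promoters were called lower and 0.785% higher. Hoxb5 had 37 of 664 methylated observations in replicate 1, 76 of 996 in replicate 2 and 331 of 1103 in REST knockout. The CTCF region centred 692 bp downstream of its TSS held 627 of the 664 observations of replicate 1 and 880 of the 996 of replicate 2. The REST knockout level weighted by their coverage was 11.05% and 14.1%, and the call was then lost.

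The other promoters show how far the replicates limit this comparison. At Hoxb1, the methylated share was 30 of 39 in replicate 1 but 6 of 36 in replicate 2, on either side of 40.3% in REST knockout. Hoxc10 stayed just under the limit, with differences of -21.9 and -19.2 percentage points. Its weighted REST knockout levels were 7.33% and 7.89%, against 1.98% and 4.63% in ChIP-BisSeq. Of the 34 promoters, 18 were lower than REST knockout in both replicates, 4 higher in both and 12 had replicates on both sides. With replicate 1 alone 7 promoters were called and with replicate 2 alone 3, so that each replicate decides the count.

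Of 166 bins of 1 kb tested in the windows, 15 were called, all of them lower in ChIP-BisSeq, beside 11.1% lower and 3.48% higher of 62143 bins in the genome. Of the 15, 10 held a CTCF-enriched bin, as did 39 of the 166 tested. With weighted REST knockout levels 6 of them kept a difference of at least 20 points in both replicates. Among those 6 was the bin at chr11:96060001-96061000 next to Hoxb13, with 8.92% and 19.3% against 39.4%. Another was chr2:74566001-74567000 inside the Hoxd4 gene, with 29.6% and 32.5% against 62.1%. The bin over the Hoxd11 end, chr2:74524001-74525000, lost it, with 4.80% and 3.23% against a weighted 5.26% and 5.05%. Replicate 1 alone called 43 such bins and replicate 2 alone 39.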

How the data were processed

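The authors deposited raw counts, namely the observations and the methylated observations of each CpG, for every library. Per the labels and processing notes, reads were aligned to mm9 and Bowtie 0.10.0.1 was used. Removal of PCR duplicates and merging of strands are not given in the sources used here. Observations that are PCR copies are not independent, nor are those of neighbouring CpGs on the same read. The genome (NCBIM37) has 21342492 CpGs, to which counts were joined by position. Tools were Python 3.11.15, NumPy 2.4.6, pandas 2.3.3, SciPy 1.17.1 and numba 0.67.0. CpGs with over 96 observations in REST knockout (the 99.9th percentile) were left out. TSSs are those of the GENCODE vM1 transcript with the longest coding sequence. Genes and sites given in full are, per cluster, the lowest and highest promoter and every promoter of 20% or more. Also given are the 3 regions per cluster whose strongest bin had the highest fold in the weaker replicate. Every called promoter and 200 bp bin is given too. Further items were chosen after their values were seen. The region of highest fold in HoxC is not reported here. The members and gene lists were chosen with earlier results of these data known. Tests were checked on simulated counts. Nothing says that the replicates come from separate cultures, so that their spread may be technical. The start-codon window, weighted levels and no REST knockout coverage limit were added after the data were seen. Other alternatives were other windows, limits, coverage minima, bins and single or pooled replicates.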

Additional observations from a re-analysis of the deposited data

How the results depend on the processing

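Of 85 values recomputed under alternatives, 61 stayed within 1.5 times the count, or for a median within a set range, and 24 moved. For the promoter median the range was the counting bounds of the 2 middle promoters, 10.1 to 15.0%. For the ChIP-BisSeq median it was the SD of the 2 replicate medians, 0.976 percentage points. Neither range is the error of a median over promoters or bins. No paired analysis was possible because the replicate numbers occur in ChIP-BisSeq alone. With a limit of 10%, 14 Hox promoters and 36 bins of 1 kb were low, and with 30%, 151 bins were. The promoter median was 15.6% with TSS plus and minus 2 kb and 9.25% with CpGs of at least 20 observations. With 1 mismatch, 14 regions held a consensus match. Called CTCF bins fell to 0 at a difference of 30 points and to 3 with at least 50 observations. Called promoters were 2 with plus and minus 2 kb and at 10 points, 0 at 30 points and with weighted REST knockout levels, and 4 with pooled replicates. Called bins of 1 kb were 34 at 10 points, 6 at 30 points, 6 with weighted levels and 57 with pooled replicates. When 1 replicate was left out, called CTCF bins were 10 to 13, called promoters 3 to 7, called 1 kb bins 39 to 43, and the ChIP-BisSeq median was 5.90% to 7.49%. Enriched bins numbered from 42 to 78 under all alternatives run. A coverage of 22 to 37 REST knockout observations at 3 of the called bins leaves wide intervals. The causes were not tested.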
